A study of Mus musculus with 2 samples.

Results

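The 6 genes of the platelet-derived growth factor (PDGF) family were examined in single-cell RNA-seq of mouse dorsal skin. They comprised the ligands Pdgfa, Pdgfb, Pdgfc and Pdgfd and the receptors Pdgfra and Pdgfrb. Their rows were found by gene symbol, and each symbol matched 1 of the 32285 genes in the count tables (ENSMUSG00000025856, ENSMUSG00000000489, ENSMUSG00000028019, ENSMUSG00000032006, ENSMUSG00000029231 and ENSMUSG00000024620, in that order). Of those genes 26214 had at least 1 UMI, a molecular barcode that counts 1 captured transcript, in a kept cell. Over both libraries the kept cells held between 1465 and 8263 UMIs of each member. Male C3H/HeN mice entered the study at 7 weeks of age and skin was taken at 9 weeks. The control group received vehicle, and the TP group received testosterone propionate, an ester of testosterone, at 0.5 mg per day as a model of androgenetic alopecia (AGA). A further group given TP and an antibody is not analysed here. Skin from 15 mice per group was pooled, digested with collagenase and sequenced as 1 library, so that each group is represented by 1 library with no replicate.

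PDGF ligands are secreted dimers that bring together receptor tyrosine kinases on the surface of mesenchymal cells. PDGF-A and PDGF-C act mainly through PDGFRA, PDGF-B binds both receptors, and PDGF-D acts mainly through PDGFRB. PDGF-C and PDGF-D are made as latent precursors that proteases have to cut before they bind a receptor. In skin, epidermal PDGF-A is a classical signal to the dermal papilla and to fibroblasts that carry PDGFRA, and endothelial PDGF-B recruits the PDGFRB-bearing pericytes of small vessels.

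RefSeq start regions of 3 ligands and 1 receptor (GRCm38.p6, 250 bases before the transcript start and 50 after it, on the strand of the gene) are printed because the treatment was an androgen. Capitals mark a TATA box (TATAAA), a GC box (GGGCGG) or an androgen receptor half-site (AGAACA), each searched on both strands. The windows lie at chr5:138994232-138994531 and chr5:138994895-138995194 on the minus strand for Pdgfa, which has more than 1 start, at chr3:81036166-81036465 on the plus strand for Pdgfc, at chr9:6168236-6168535 on the plus strand for Pdgfd and at chr5:75152001-75152300 on the plus strand for Pdgfra. Pdgfb and Pdgfrb are named only.
Pdgfa, first window: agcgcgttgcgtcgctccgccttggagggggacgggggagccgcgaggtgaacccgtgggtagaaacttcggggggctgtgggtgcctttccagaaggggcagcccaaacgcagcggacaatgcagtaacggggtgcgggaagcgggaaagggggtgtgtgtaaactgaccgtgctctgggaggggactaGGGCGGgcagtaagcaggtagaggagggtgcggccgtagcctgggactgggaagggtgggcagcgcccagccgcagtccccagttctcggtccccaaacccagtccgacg
Pdgfa, second window: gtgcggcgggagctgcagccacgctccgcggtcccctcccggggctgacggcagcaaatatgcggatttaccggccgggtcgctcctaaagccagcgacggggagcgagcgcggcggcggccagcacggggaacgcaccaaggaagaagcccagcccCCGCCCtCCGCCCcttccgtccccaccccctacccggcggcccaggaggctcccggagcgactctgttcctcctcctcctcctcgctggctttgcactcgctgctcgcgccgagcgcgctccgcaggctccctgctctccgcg
Pdgfc: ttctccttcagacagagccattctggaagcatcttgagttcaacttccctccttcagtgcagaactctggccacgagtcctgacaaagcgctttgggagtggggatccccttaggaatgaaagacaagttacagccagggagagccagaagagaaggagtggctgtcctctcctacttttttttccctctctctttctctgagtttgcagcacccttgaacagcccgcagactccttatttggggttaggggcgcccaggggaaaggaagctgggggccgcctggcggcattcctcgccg
Pdgfd: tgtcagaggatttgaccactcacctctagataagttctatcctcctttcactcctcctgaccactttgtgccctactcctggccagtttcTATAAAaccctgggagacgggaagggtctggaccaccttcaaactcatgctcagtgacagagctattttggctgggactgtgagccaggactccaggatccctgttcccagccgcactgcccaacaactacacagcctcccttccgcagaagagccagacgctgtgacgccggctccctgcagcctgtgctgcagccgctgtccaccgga
Pdgfra: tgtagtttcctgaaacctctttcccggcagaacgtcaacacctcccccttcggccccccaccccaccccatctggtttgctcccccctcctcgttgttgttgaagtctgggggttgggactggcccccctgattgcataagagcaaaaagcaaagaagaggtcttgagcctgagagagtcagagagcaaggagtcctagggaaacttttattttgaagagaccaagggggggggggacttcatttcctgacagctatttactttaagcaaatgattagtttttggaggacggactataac
Both Pdgfa windows held GC boxes, 1 in the first and 2 in the second, and had a GC content of 67.0% and 73.3%. The Pdgfd window held 1 TATAAA match, which began 160 bases before the start that the window is placed on, and its GC content was 56.7%. The RefSeq gene span begins at base 6168363 for Pdgfd and 75151322 for Pdgfra, and that of Pdgfa, on the minus strand, ends at 139000792. Each of these lies upstream of the starts used for the windows, so positions in a window hold only for the start used. None of the 3 motifs was found in the Pdgfc or Pdgfra window, and AGAACA was found in none of the 5 windows. Among all 32851 windows of this length, TATAAA was present in 13.6%, GGGCGG in 35.7% and AGAACA in 18.97%. These matches are letters in a window and were not tied to any measurement.

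The control library held 39076 kept cells with 105701369 UMIs (median 2045 per cell), and the TP library held 18542 kept cells with 131081210 UMIs (median 4773). Levels are given as CPM, a gene's UMIs scaled to 1 common total of UMIs in every class and library, so that the total depth of a class is divided out. UMIs were summed over cells first, so cells with more UMIs weigh more in a level. Brackets after a level or a ratio give the 95% interval from counting error only (exact Poisson for a level, exact conditional binomial for a ratio, Clopper-Pearson for a share). With 1 pooled library per group, differences between mice and between preparations cannot be told apart from the treatment, and no test between groups was made. Clusters were built without the 6 genes and named from markers. Names such as DF-like (dermal fibroblast), DPC-like (dermal papilla cell), DSC-like (dermal sheath cup) and EC-like (endothelial) stand for rebuilt classes, shown without "like" in the plots. Unnamed clusters held 48.8% of control cells and 25.5% of TP cells, mostly in clusters of keratinocytes. The libraries differed in makeup. DF-like cells made up 0.394% of the control and 3.34% of the TP library, DPC-like cells 8.98% and 5.54%, and cells of the interfollicular epidermis (IFE), basal and suprabasal together, were also more frequent after TP. The 7 inner root sheath markers, which are 6 keratins and Gata3, a transcription factor that lymphocytes and keratinocytes also make, summed to 1340 to 3235 CPM in 12 other classes of the control library and 260.4 to 969 CPM in the TP library. The part of free RNA in these sums was not tested. Platelets, a classical store of PDGF, were not seen as a class. Their 4 markers summed to 5.39 CPM in control and 28.6 CPM in TP. These were Pf4 (219 and 3350 UMIs), which was also a leading gene of a myeloid-like cluster, and Itga2b (351 and 391 UMIs), while Ppbp had 0 and 5 UMIs and Gp9 none in either library. The libraries shared 303 cell barcodes, of which 185 were among kept cells.

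Over all kept cells, the 4 ligands had higher levels in the TP library and the 2 receptors were close to their control levels. Pdgfc stood at 34.4 CPM (33.4 to 35.5) with TP against 17.7 CPM (16.9 to 18.5) with vehicle, which gave a ratio of 1.94 (1.84 to 2.05). Pdgfd went from 4.76 to 8.77 CPM, a ratio of 1.84 (1.66 to 2.05). Pdgfb, at 4.50 and 7.54 CPM, had a ratio of 1.68 (1.5004 to 1.87), and Pdgfa, the most abundant member, had a ratio of 1.502 (1.44 to 1.57) from levels of 27.3 and 41.0 CPM. None of the 6 members reached a 2-fold difference with this scaling. Pdgfc and Pdgfd did with TMM scaling (log2 ratios of 1.20 and 1.13), and Pdgfb, Pdgfc and Pdgfd did with cells weighted equally (1.10, 1.63 and 1.26). The share of all genes past 2-fold with cells weighted equally is not given here. Whether passing 2-fold is unusual with that weighting therefore cannot be told. Averaged log normalized values gave 1.404, 1.66 and 1.37 for Pdgfb, Pdgfc and Pdgfd. These are log2 ratios of mean logs over cells that were not thinned, and not fold differences in level. Among the 17559 genes with at least 50 UMIs, 8.33% reached a 2-fold difference in favour of TP and 10.3% in favour of control (1463 and 1811 genes, or 2004 and 1049 with edgeR's TMM scaling). The median log2 ratio of these genes was -0.23, and TMM scaling raised every log2 ratio by 0.24. Relative to that median, the members stood at 0.82 (Pdgfa), 0.97 (Pdgfb), 1.19 (Pdgfc), 1.11 (Pdgfd), 0.34 (Pdgfra) and 0.35 (Pdgfrb) on the log2 scale.

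Pdgfra was at 24.3 CPM in control and 26.2 CPM in TP, a ratio of 1.08 (1.03 to 1.14). Pdgfrb was at 6.16 and 6.68 CPM, and the interval of its ratio of 1.09 included 1 (0.979 to 1.20). A mitochondrial limit of 5% in place of 10% turned the direction for Pdgfra, with a log2 ratio of -0.046. Averaged log normalized values gave 0.50 for Pdgfra and 0.73 for Pdgfrb.

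Ratios were also taken with the same cluster makeup in both libraries. When both libraries were given the cluster makeup of the control, the ratio was close to 1, at 0.976 for Pdgfb and 0.992 for Pdgfd. With the makeup of the TP library it was 0.875 and 0.646. These ratios have no interval and carry no TMM scaling, which raised log2 ratios over all cells by 0.24. On the log2 scale only 0.646 lies farther below 1 than that. Pdgfc stayed above 1, at 1.18 with the control makeup and 1.24 with the TP makeup. Pdgfa stood at 1.32 under either makeup. Of the receptors, Pdgfra stood at 1.007 with the control makeup and 1.004 with the TP makeup. Pdgfrb stood at 1.04 and 0.959, on either side of 1.

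**Figure D1:**
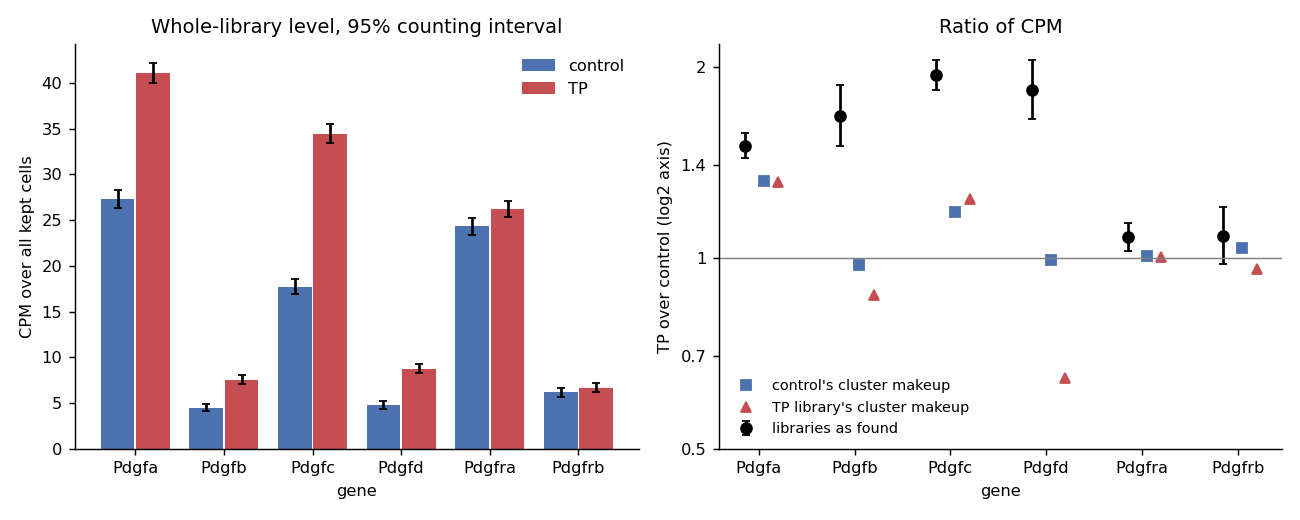
Left, CPM of each gene over all kept cells of the control and TP libraries, 1 library each, with 95% counting intervals. Right, the TP over control ratio on a log2 axis as found (black, with interval) and with both libraries given the cluster makeup of the control (squares) or of the TP library (triangles). Pdgfb and Pdgfd drop to or below 1 with either makeup, and Pdgfrb drops below 1 with the TP makeup.

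Keratinocytes, in named classes and unnamed clusters, supplied most UMIs of either library (46.3% and 39.0% of all UMIs in control, 66.4% and 18.7% in TP). They held 57.7% and 31.2% of Pdgfa UMIs in control and 71.9% and 19.9% in TP, and for Pdgfb 72.3% and 19.1%, then 83.6% and 8.70%. For Pdgfc the shares were 65.8% and 15.2%, then 65.6% and 5.78%, which summed to less than the keratinocyte share of all UMIs in both libraries. Stromal cells held most UMIs of Pdgfd, Pdgfra and Pdgfrb. In the control library DPC-like cells carried 74.6% of Pdgfra, 60.4% of Pdgfrb and 41.2% of Pdgfd UMIs. In TP those shares were 36.6%, 29.6% and 15.8%, and DF-like cells carried 38.6%, 37.2% and 56.7%, against 5.22%, 5.53% and 19.1% in control. Over the same cells, DPC-like cells contributed 10.2% and 5.02% of all UMIs and DF-like cells 0.455% and 3.68%. Receptor UMIs were thus found mainly in DPC-like cells in control. In TP, DF-like and DPC-like cells held 1327 and 1259 UMIs of Pdgfra and 326 and 259 of Pdgfrb. Unnamed stromal clusters held a further 424 (12.3%) and 74 (8.45%). Of these, 262 and 42 lay in a cluster led by Lhfpl3 and Pcdh15 (8 control and 266 TP cells). Its best-scoring marker list was dermal papilla, so the order of DF-like and DPC-like cells for Pdgfra in TP depends on naming. A share of UMIs depends on both the number of cells and the level in each.

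**Figure D2:**
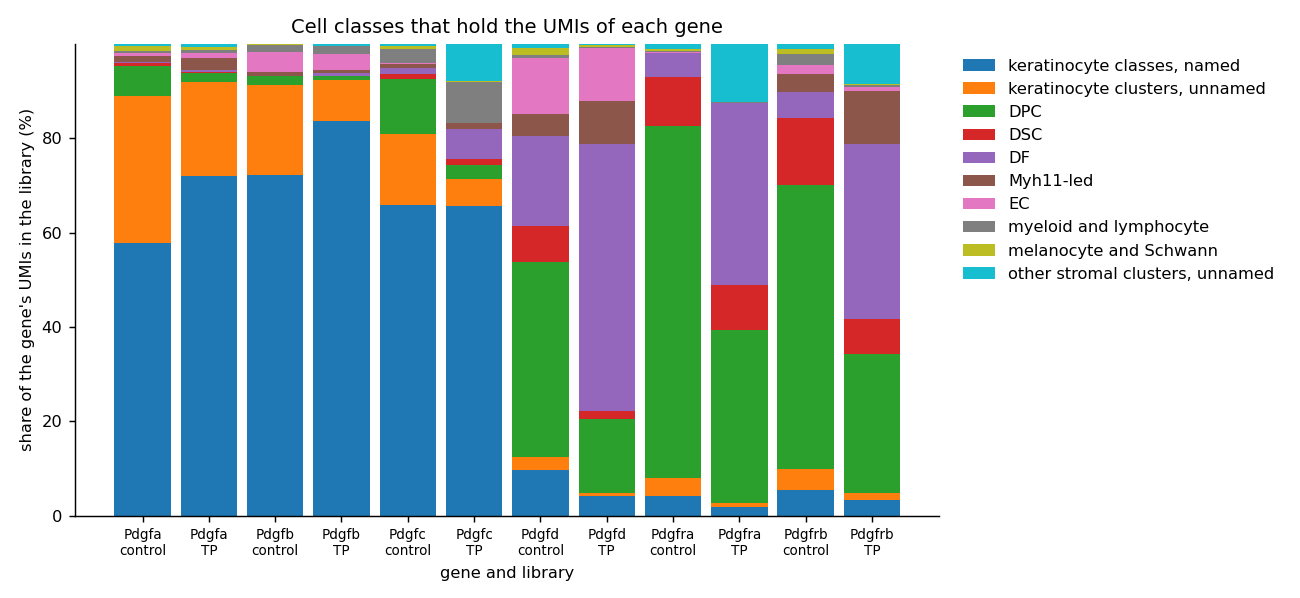
Share of each gene's UMIs (percent of the gene's UMIs in that library, y axis) by group of cell classes, for control and TP. Blue and orange keratinocyte segments fill most of the Pdgfa, Pdgfb and Pdgfc bars, and the DPC segment (green) of Pdgfra, Pdgfrb and Pdgfd is smaller in TP while the DF segment (purple) is larger.

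Pdgfa was the broadest ligand. Its highest level in either library was in a contractile cluster led by Myh11, at 229.5 CPM (165 to 311) in the 59 control cells and 303 CPM (255 to 358) in the 99 TP cells. This cluster expressed genes of smooth muscle and pericytes, including Myh11, the smooth muscle myosin heavy chain (8655 and 10458 CPM), Notch3 (661 and 894 CPM) and Rgs5 (235 and 599.5 CPM). From the same list, Kcnj8 had 3 and 7 UMIs and Higd1b 12 and 32 UMIs. Of the sheath cup markers it lacked Acan and, but for 1 UMI, Col11a1. The sheath cup markers Acta2, Tagln, Itga8 and Mylk were higher in it than in DSC-like cells, with Acta2 at 6998 and 9649 CPM against 559 and 1101 CPM. The cluster is called by its leading gene because its scores for sheath cup (4.77) and for pericyte and smooth muscle (4.53) lay too close together. Of the other classes the highest were Schwann-like cells, with 134 and 128 CPM from 8 and 10 UMIs, and outer bulge-like cells, the niche of hair follicle stem cells, with 99.2 and 238 CPM. Hair matrix-like cells, with Kcnip1 and Shh as leading genes, were at 76.2 and 108 CPM, and IFE basal-like cells at 57.2 and 54.3 CPM. EC-like cells were at 51.6 and 83.2 CPM (15 and 61 UMIs). Among them, the cluster led by the lymphatic genes Ccl21a and Mmrn1 held 97.7 and 106 CPM (10 and 47 UMIs). That was 3.68 (1.15 to 13.7) and 2.21 (1.19 to 4.34) times the cluster led by Flt1 and Plvap. In control the intervals of neighbouring levels separated the outer bulge from the matrix (ratio 1.30, 1.06 to 1.60) but not the Myh11-led cluster from Schwann-like cells (1.72, 0.794 to 4.24). In TP the Myh11-led cluster lay above the outer bulge (1.28, 1.07 to 1.52).

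Between libraries, Pdgfa was 2.40 times as high in TP within outer bulge-like cells (2.03 to 2.84), from 154 UMIs in 637 control cells and 1946 UMIs in 1563 TP cells. Of 17 classes and clusters with at least 50 UMIs of Pdgfa, 3 were at least 2-fold higher, and the other 2 were unnamed keratinocyte clusters, led by Ntn1 and Tmtc1 (2.11, 1.58 to 2.81) and by Selenbp1 and Kcnh1 (2.08, 1.47 to 2.90). In outer bulge-like cells a 2-fold difference was found for 3.3% of 10829 genes in favour of TP and for 3.92% in favour of control (357 and 424 genes, 516 and 296 with TMM). Of the markers that named the class, Krt15 was at 994 and 1065 CPM, Lgr5 at 587 and 731 CPM, Postn at 444 and 409.7 CPM, Lhx2 at 208 and 306 CPM, Sox9 at 255 and 379 CPM and Cd34 at 32.8 and 27.0 CPM. Here and below, thinned shares are of cells thinned to 1000 UMIs, with cells below that depth left out, while unthinned shares use all cells. Of 532 control and 1449 TP cells after thinning, 8.83% (6.56 to 11.6) and 14.9% (13.1 to 16.8) had a Pdgfa UMI. Without thinning the shares were 18.2% and 41.6%. Lymphocyte-like cells, used as background, had shares of 0.457% and 3.37%, at median depths of 1543 and 2180.5 UMIs against 1878 and 3443 in the outer bulge. Within that background class, however, a cluster led by Gzmc and Xcl1 held 45.4 CPM of Pdgfa in control and 122 CPM in TP (3 and 15 UMIs), whereas the cluster led by Cd3g held 11.6 CPM and, in TP, 0 UMIs, which allows a level of up to 23.6 CPM.

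In the epidermis no higher level of Pdgfa was detected. Its IFE basal-like ratio was 0.949 (0.842 to 1.07), or 0.13 on the log2 scale with TMM, and 4.96% of thinned control cells (4.18 to 5.84) and 4.43% of TP cells (3.73 to 5.22) had a UMI, or 11.8% and 19.1% unthinned. Here 1.54% of 11446 genes were at least 2-fold higher with TP and 3.59% lower (176 and 411 genes, 277 and 295 with TMM). In IFE suprabasal-like cells Pdgfa was lower in TP, at 19.1 and 9.75 CPM, with a ratio of 0.51 (0.44 to 0.593). Basal-cell markers in the suprabasal class were also lower in TP, at 3829.6 and 2449.7 CPM summed over 6 genes, and their part in this difference was not tested.

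Pdgfb was the scarcest ligand and had its highest level in EC-like cells, with 45.0 CPM (31.0 to 63.2) after TP against 68.7 CPM (42.0 to 106) without it. Pdgfb there was above the next class in both libraries, by a ratio of 3.07 (1.03 to 12.4) and 3.44 (1.42 to 10.04) over the Myh11-led cluster. EC-like cells were of 2 kinds. One, led by Flt1, a VEGF receptor, and Plvap, a diaphragm protein of blood capillaries, held 90.2 CPM of Pdgfb in control and 110 CPM in TP. The other, led by the lymphatic genes Ccl21a and Mmrn1, held 29.3 CPM (3 UMIs) and 2.26 CPM (1 UMI), with ratios between the clusters of 3.08 (0.89 to 16.4) and 48.7 (8.14 to 1983). The TP over control ratio over all EC-like cells was 0.654 (0.365 to 1.20), and the lymphatic cluster made up 51 of 113 control and 149 of 209 TP cells. With thinning, 9.2% of control EC-like cells (4.05 to 17.3) and 3.53% of TP cells (1.31 to 7.52) had a Pdgfb UMI, or 15.0% and 8.61% without it. Inner root sheath-like cells, the background class, had 0.0992% in control and none of 784 in TP, where a count of 0 allows up to 0.383% (3 counts of the total, as for each count of 0), at median depths of 1976 and 3812 UMIs against 1865 and 1895. Of 4283 genes with enough UMIs in EC-like cells, 4.79% differed at least 2-fold in favour of TP and 3.15% in favour of control (205 and 135 genes, 285 and 94 with TMM).

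Keratinocytes had lower levels of Pdgfb than EC-like cells. IFE suprabasal-like cells were at 12.3 CPM in control and 11.03 CPM in TP. IFE basal-like cells were at 13.5 and 9.99 CPM, a ratio of 0.738 (0.567 to 0.964). That direction turned, to a log2 ratio of 0.031, when log normalized values were averaged over cells. Inner root sheath-like cells, by comparison, were at 0.605 and 0.767 CPM.

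**Figure D3:**
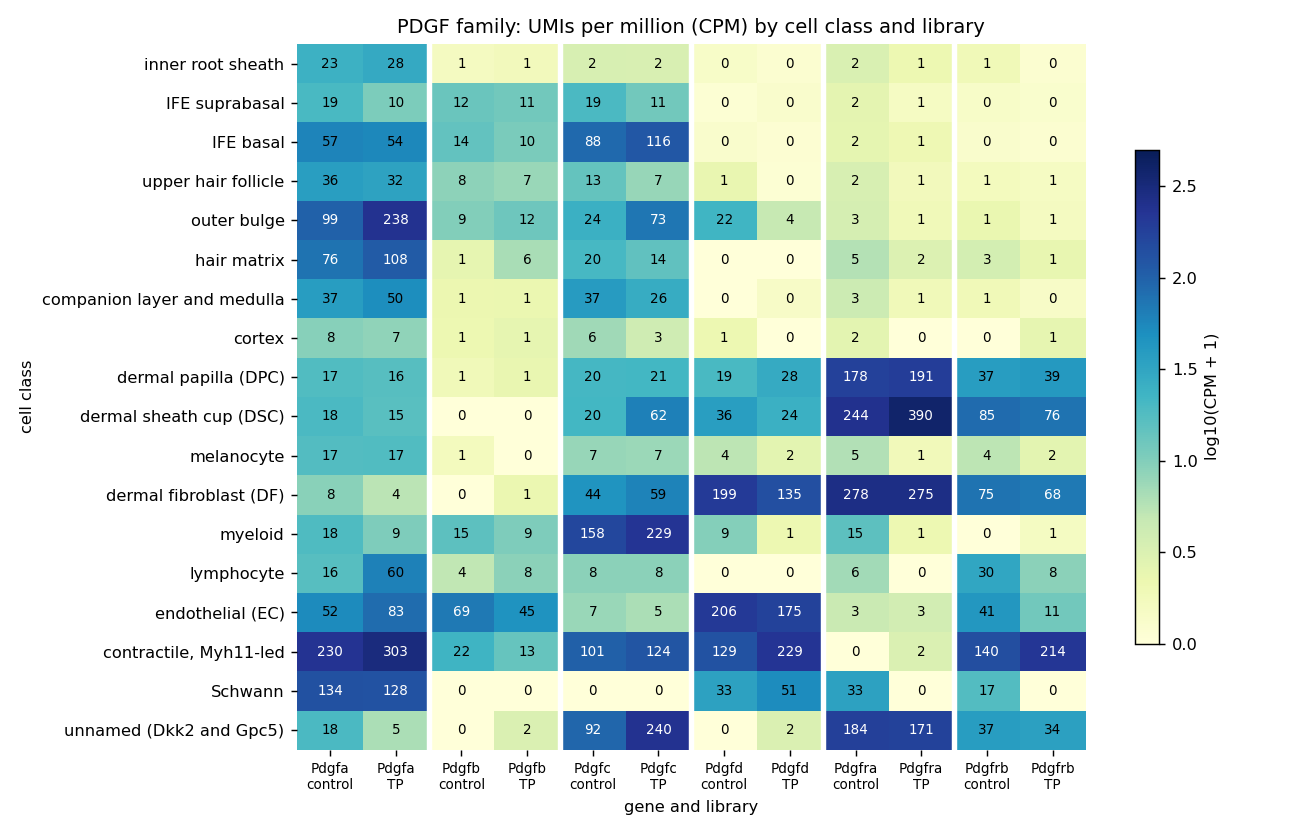
CPM of each gene (columns, control and TP side by side) in each named cell class and in the Dkk2-led cluster (rows), with color on a log10(CPM + 1) scale and CPM printed in each cell. Pdgfa and Pdgfc reach the epithelial rows, Pdgfb peaks in EC, and Pdgfra is at 178 to 390 CPM in the DPC, DSC and DF rows of both libraries.

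Pdgfc was highest in myeloid-like cells, in the Myh11-led cluster, in an unnamed stromal cluster led by Dkk2 and in basal keratinocytes. In control the intervals between neighbours among these 4 included a ratio of 1. Myeloid-like cells held 158 CPM (119 to 206) in control, and in TP they held 229 CPM (206.5 to 252.5), which was 1.45 times as much (1.09 to 1.96). Within that class, the cluster led by C1qa and Mrc1, genes of tissue macrophages, held 325 CPM in control (50 UMIs in 55 cells) and 317 CPM in TP (369 UMIs in 223 cells), a ratio of 0.976 (0.725 to 1.34). Another, led by Cd74 and other MHC class II genes, held 29.9 and 46.9 CPM. Pdgfc in the C1qa cluster was 10.9 times (3.99 to 41.5) that of the Cd74 cluster in control and 6.76 times (4.40 to 10.9) in TP. The level inside the macrophage-type cluster was therefore close in the 2 libraries, while that cluster made up 55 of 147 control and 223 of 390 TP cells of the class. Among thinned myeloid-like cells 13.9% (8.33 to 21.4) in control and 16.5% (12.8 to 20.7) in TP had a Pdgfc UMI, or 17.7% and 38.7% unthinned, at median depths of 1835 and 4154 UMIs. The lymphocyte-like background was 0.457% in control, and in TP it was 0 of 89 cells, a count that allows up to 3.37%. The 2-fold mark was passed in favour of TP by 7.3% of 6194 genes in myeloid-like cells and in favour of control by 8.7% (452 and 539 genes, 924 and 243 with TMM).

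In IFE basal-like cells Pdgfc was at 88.2 CPM in control and 116 CPM in TP, a ratio of 1.32 (1.20 to 1.45), and these cells held 33.8% and 37.6% of all Pdgfc UMIs. The DF markers in them summed to 61.7 and 168 CPM and the myeloid markers to 13.1 and 26.8 CPM, and their part was not tested. The basal cluster led by Cdh13 and Sox6 was highest, at 126 and 214 CPM, with a TP over control ratio of 1.70 (1.49 to 1.94). A cluster led by Krt14, the keratin of basal cells, was at 70.3 and 78.1 CPM, a ratio of 1.11 (0.952 to 1.30). Farther up, in IFE suprabasal-like cells, Pdgfc was lower in TP (18.5 and 11.1 CPM, ratio 0.6, 0.519 to 0.696). The 6 basal cell markers summed to 3829.6 and 2449.7 CPM in those cells, and their part was not tested. Outer bulge-like cells had 23.8 CPM in control (37 UMIs) and 72.5 CPM in TP (594 UMIs), a ratio of 3.04 (2.18 to 4.36). Pdgfa and Pdgfc were thus both more than 2-fold higher in TP in the outer bulge, and the intervals of both ratios lay above 2. The 6 basal cell markers, at 3755 and 4416 CPM, and the DF markers, at 59.2 and 196 CPM, were also higher in TP in these cells, and their part was not tested.

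Stromal cells also held Pdgfc. DF-like cells were at 43.6 and 59.3 CPM, a ratio of 1.36 (0.872 to 2.23), and the Myh11-led cluster at 101 and 124 CPM. DSC-like cells were at 20.3 CPM (22 UMIs) and 61.8 CPM (52 UMIs), a ratio of 3.04 (1.81 to 5.26). For 6600 genes in DSC-like cells the share past 2-fold was 4.23% in favour of TP and 6.15% in favour of control (279 and 406 genes, 353 and 332 with TMM). The DF markers were also higher in TP in DSC-like cells, at 6658 and 18506 CPM summed over 7 genes, as were the myeloid markers, at 23.1 and 158 CPM over 9 genes, and their part in the Pdgfc difference was not tested. An unnamed cluster led by Dkk2 and Gpc5 held 92.0 CPM (5 UMIs in 31 control cells) and 240 CPM (219 UMIs in 295 TP cells). With 295 cells from TP and 31 from control, it may be that library and not a type.

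Pdgfd was the most vascular and mesenchymal ligand. Its level in EC-like cells was 206 CPM (157 to 265.5) in control, not apart from DF-like cells (1.03 times, 0.736 to 1.44). With TP it was 174.5 CPM (145.6 to 207.5), and the ratio of 0.846 had an interval that included 1 (0.618 to 1.17). All of this came from the Flt1-led cluster but for 1 UMI. That cluster held 318 CPM in control and 437 CPM in TP, a ratio of 1.37 (1.002 to 1.90), opposite in direction to that of the whole class. The lymphatic cluster had 0 UMIs in control, where the blood vessel cluster was 10.9 times the floor of 3 counts (lower 95% limit of the ratio 8.56), and 1 UMI in TP, a ratio of 193 (34.1 to 7693). Thinned shares in EC-like cells were 12.6% (6.48 to 21.5) and 5.88% (2.86 to 10.6), or 19.5% and 14.4% unthinned, with 0.0794% and 0 of 784 in the inner root sheath.

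DF-like cells held less Pdgfd in TP, 135 CPM (124.8 to 146) against 199 CPM (161.5 to 243.5), a ratio of 0.677 (0.546 to 0.848). It was lower in 3 of the 4 fibroblast clusters, in 2 of them with an interval below 1. That led by Col1a1 and Ctsk was at 180 and 95.9 CPM (ratio 0.532, 0.39 to 0.74), and the one led by C7 and C3 at 176 and 50.9 CPM (0.289, 0.149 to 0.603). The one led by Ogn and Sfrp4 was at 227 and 168 CPM (0.737, 0.488 to 1.15). A small cluster led by Pi16 and Mfap5, adventitial-type fibroblast genes, was at 340.3 CPM from 8 UMIs in 7 control cells and 479 CPM from 209 UMIs in 64 TP cells, and in TP it was 5.00 times (4.15 to 6.01) the Col1a1 cluster. Of 8913 genes, 4.07% in DF-like cells were at least 2-fold higher with TP and 7.85% lower (363 and 700 genes, 795 and 262 with TMM). TMM scaling raised log2 ratios by 0.36 in this class, which brought that of Pdgfd from -0.56 to -0.21.

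For DPC-like cells the levels were 19.2 CPM (16.7 to 22.04) without and 27.5 CPM (23.7 to 31.8) with TP, a ratio of 1.43 (1.17 to 1.76). The 7 DF markers summed to 1603 and 2010.3 CPM in DPC-like cells, and their part was not tested. Within that class expression was uneven. A cluster led by Galnt13 and Fgf14 held 220 CPM in control (66 UMIs in 88 cells) and 59.2 CPM in TP (95 UMIs in 265 cells), a ratio of 0.27 (0.195 to 0.375). That led by Tmem132c and Shisa9 had 0 UMIs in 770 control cells and in 76 TP cells. The Galnt13-led cluster was 103.5 times its floor of 3 counts in control (lower 95% limit of the ratio 81.9) and 4.54 times in TP (lower limit 3.62). In the Sostdc1-led cluster the levels were 30.05 and 49.3 CPM (ratio 1.64, 1.11 to 2.40). The class ratio above 1 thus stood beside a ratio far below 1 in its richest cluster, which made up 88 of 3509 control cells and 265 of 1027 TP cells.

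In the Myh11-led cluster Pdgfd was at 129 CPM (23 UMIs) and 229 CPM (105 UMIs), a ratio of 1.78 (1.12 to 2.93). Markers of other cells were also higher there in TP, at 470.2 and 981 CPM for the 7 DF markers and 0 and 294 CPM for the 9 myeloid markers, and their part was not tested. Outer bulge-like cells had 21.9 CPM in control (34 UMIs) and 3.66 CPM in TP (30 UMIs), a ratio of 0.167 (0.0989 to 0.282), the opposite direction to Pdgfa and Pdgfc in the same cells.

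**Figure D4:**
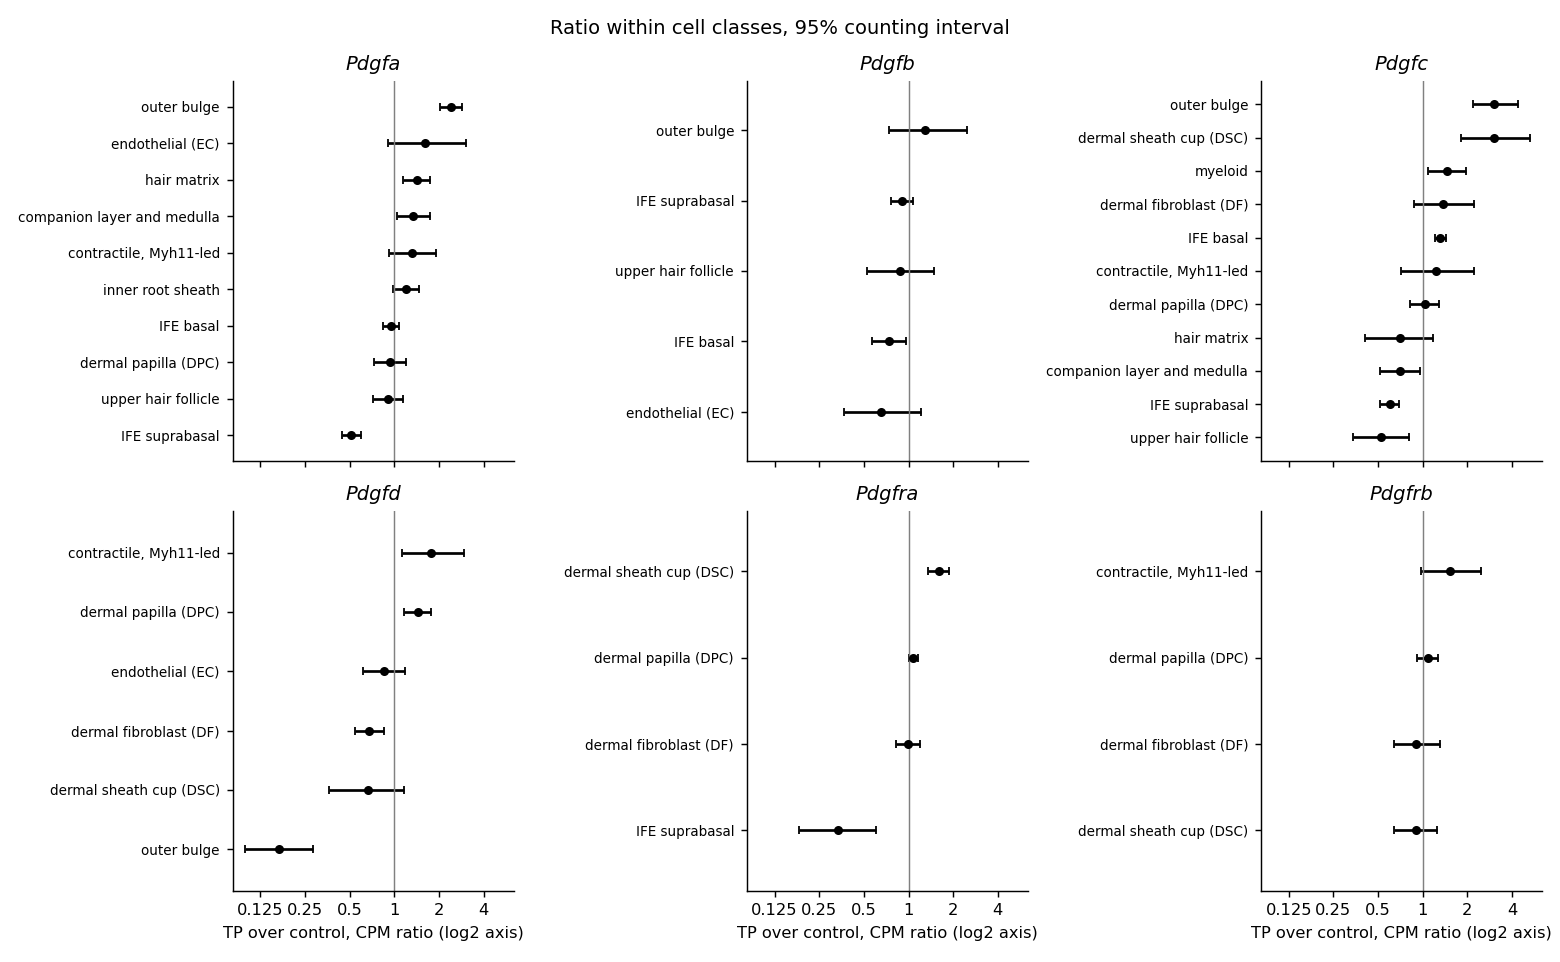
TP over control ratio of CPM (log2 axis) with 95% counting interval for each gene in each named class with at least 50 UMIs over both libraries and 20 cells in each. Pdgfa lies furthest right in the outer bulge and Pdgfc in the outer bulge and DSC, Pdgfd lies furthest left in the outer bulge, and Pdgfra lies at 1.60 in the DSC and close to 1 in the DPC and DF.

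Pdgfra marked the dermal mesenchyme. Levels in DF-like cells were 278 CPM (233 to 329.7) and 275 CPM (261 to 290.4), control before TP, and those in DPC-like cells 178 CPM (170.2 to 186) and 191.5 CPM (181 to 202). The TP over control ratio was 0.988 (0.827 to 1.19) in DF-like and 1.08 (1.00 to 1.16) in DPC-like cells, and the latter turned to a log2 ratio of -0.022 when each cell was weighted equally. In DF-like cells the log2 ratio was -0.02 (-0.27 to 0.25). TMM scaling raised it by 0.36, so that its direction turned too. DSC-like cells, the contractile sheath around the follicle base, were at 244 CPM (264 UMIs) and 390 CPM (328 UMIs), a ratio of 1.60 (1.355 to 1.89), and were the class with the highest level in TP (1.42 times DF-like cells, 1.25 to 1.60). The DF markers, given above as higher in these cells with TP, moved with it, and their part was not tested. In the Myh11-led cluster Pdgfra had 0 UMIs in control, which allows up to 16.8 CPM, and 1 UMI in TP.

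Thinned to 1000 UMIs, 23.8% of DF-like cells in control (16.8 to 32.1) and 22.1% in TP (18.8 to 25.7) had a Pdgfra UMI, and 15.4% (14.2 to 16.7) and 14.2% (12.1 to 16.6) of DPC-like cells. Unthinned shares were 46.1% and 68.2% in DF-like and 35.5% and 54.6% in DPC-like cells, with median depths of 2649 and 6977 UMIs and of 2525 and 5578 UMIs, so that the higher unthinned shares in TP went with deeper cells. The inner root sheath had 0.218% in control (0.109 to 0.39) and 0 of 784 cells in TP. Of 12585 genes in DPC-like cells, 3.2% passed 2-fold in favour of TP and 5.76% in favour of control (403 and 725 genes, 471 and 638 with TMM).

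The 8 papilla clusters ranged from 102.5 to 327 CPM in control and from 74.5 to 346 CPM in TP, and their ratios between libraries from 0.446 to 1.30. Highest in both was the cluster led by Ndnf and Tmem132c. That led by Kcnq3 and Dcc held 167 CPM in control and 74.5 CPM in TP (17 UMIs), a ratio of 0.446 (0.255 to 0.731), and the 2 papilla clusters with most TP cells, led by a (agouti) and Vip and by Galnt13, were at 153 and 178.5 CPM and at 183 and 222 CPM. Among fibroblasts, the Ogn-led cluster held 398 and 435 CPM, which was 2.00 times (1.33 to 3.01) the Col1a1-led cluster in control and 2.27 times (1.98 to 2.60) in TP. IFE suprabasal-like cells had 1.61 and 0.534 CPM of Pdgfra from 25 UMIs in each library, a ratio of 0.332 (0.183 to 0.603). Both levels were below the 2.27 and 1.15 CPM of the inner root sheath and are read as background. Of 12618 genes in IFE suprabasal-like cells, 2.09% were at least 2-fold higher with TP and 11.3% lower (264 and 1426 genes, 532 and 714 with TMM).

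Pdgfrb had its highest level in the Myh11-led cluster, with 140.0 CPM (90.6 to 207) from 25 control UMIs and 214 CPM (173.5 to 260.4) from 98 TP UMIs. The interval of the ratio of 1.53 included 1 (0.976 to 2.47). It was 1.65 times (1.013 to 2.58) the DSC-like level in control and 2.81 times (2.03 to 3.91) in TP. Of the other mesenchymal classes, DSC-like cells were at 85.1 and 76.1 CPM, DF-like cells at 74.8 and 67.6 CPM and DPC-like cells at 36.5 and 39.4 CPM. The ratios between libraries were 0.904 (0.64 to 1.31) in DF-like, 1.08 (0.918 to 1.265) in DPC-like and 0.895 (0.64 to 1.24) in DSC-like cells. All 3 intervals included 1. Among 2535 genes in the Myh11-led cluster, 6.9% passed 2-fold in favour of TP and 4.06% in favour of control (175 and 103 genes, 258 and 74 with TMM).

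With thinning, 15.7% of the Myh11-led control cells (7.02 to 28.6) and 13.2% of TP cells (7.00 to 21.9) had a Pdgfrb UMI, and 10.8% and 7.94% of DF-like cells. Without it the shares were 33.9% and 49.5%, and 18.8% and 35.9%. The inner root sheath had 0.119% and 0 of 784. It was also counted outside the mesenchyme. EC-like cells held 41.2 CPM in control (21.3 to 72.1, 12 UMIs), an interval that included the DPC-like level, and 10.9 CPM in TP (8 UMIs). All lay in the Flt1-led cluster and in only 2.65% and 1.91% of EC-like cells. The interval treats UMIs as independent and may therefore be too narrow. The second-best marker list of that cluster was pericyte and smooth muscle (score 2.01), and the part of such cells was not tested. Lymphocyte-like cells held 30.2 CPM in control (15 UMIs), all in the Cd3g-led cluster.

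**Figure D5:**
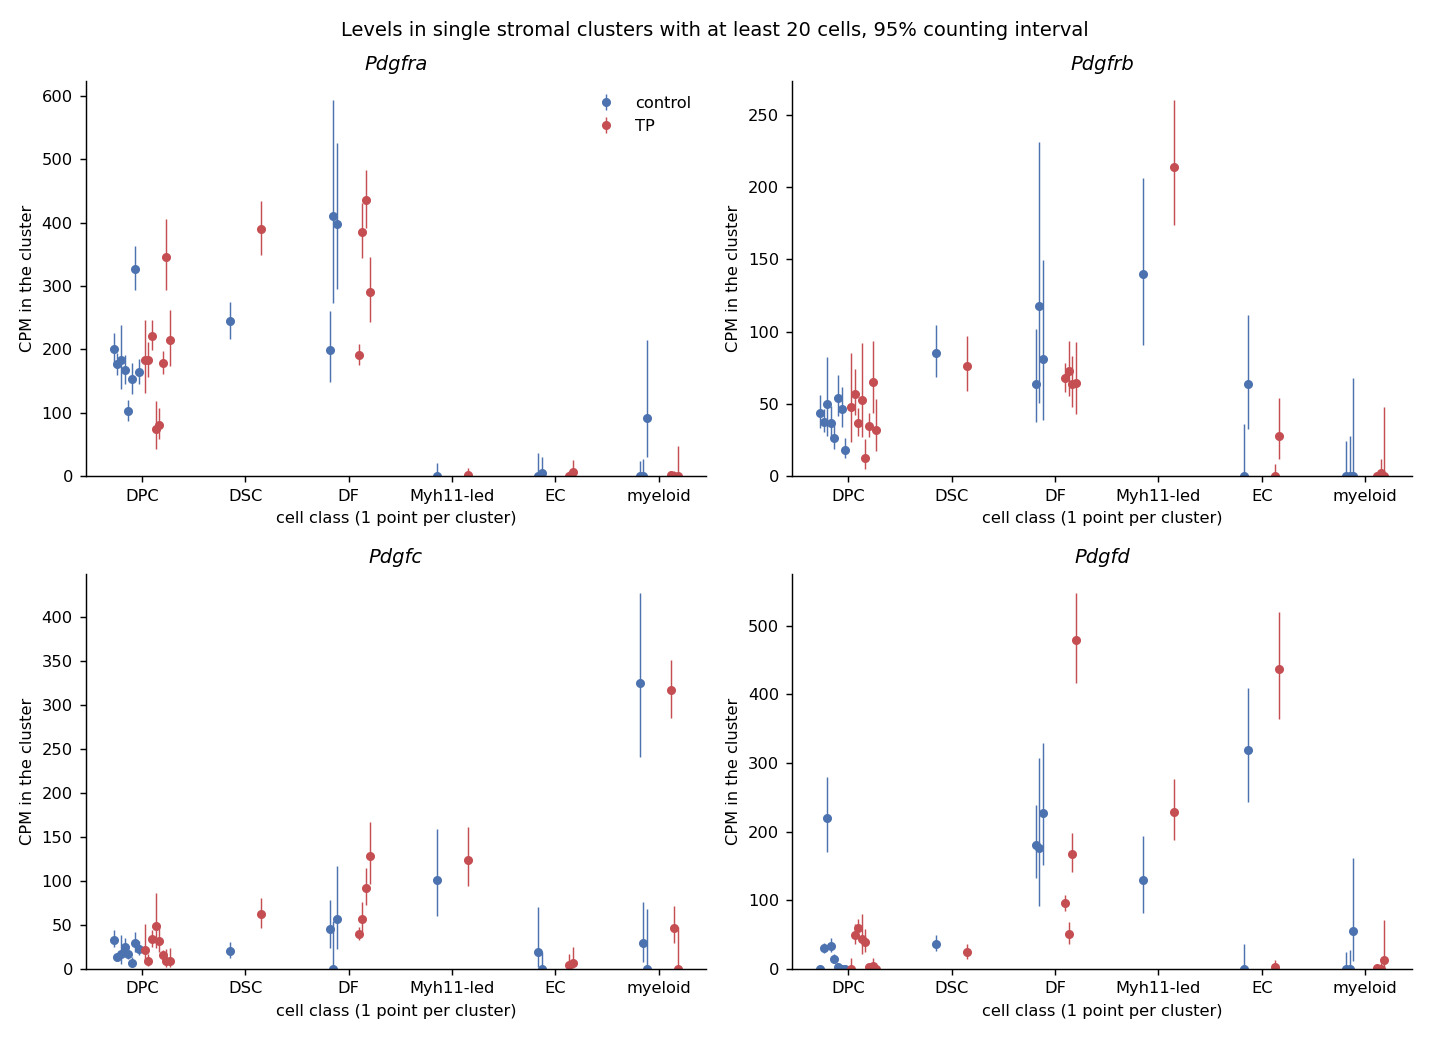
CPM of Pdgfra, Pdgfrb, Pdgfc and Pdgfd in single stromal clusters with at least 20 cells of a library, grouped by class, 1 point per cluster and library with 95% counting intervals. The 2 EC and 3 myeloid clusters lie far apart for Pdgfd and Pdgfc, and 1 papilla cluster stands at 220 CPM of Pdgfd in control.

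The 2 receptors met in the same classes but were rarely counted in the same cell at 1000 UMIs. Among DPC-like control cells with a Pdgfra UMI, 4.17% (2.63 to 6.24) also had a Pdgfrb UMI, against 3.83% (3.16 to 4.59) of those without. In TP those shares were 5.56% (2.43 to 10.7) and 3.58% (2.44 to 5.04). In DF-like cells they were 12.9% (3.63 to 29.8) and 10.1% (4.95 to 17.8) in control and 7.63% (3.72 to 13.6) and 8.03% (5.71 to 10.9) in TP. All of these intervals overlapped, so that no preference of the receptors for the same or for different cells was detectable at this depth. The same held for Pdgfd in DF-like cells, which was counted in 12.9% of control cells with a Pdgfra UMI and 16.2% of those without.

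The partners of the pathway were taken from 6 lists. Their counts stand beside 8.33% of all genes higher and 10.3% lower over all cells, 4.07% and 7.85% in DF-like cells, and 3.2% and 5.76% in DPC-like cells. Of 4 genes for processing of the precursors (Furin, Pcsk5, Plat and Plau), none differed 2-fold over all cells, with a median log2 ratio of -0.25 against -0.23 over all genes tested. In DF-like cells 1 was higher. This was Plat, the tissue plasminogen activator that cuts PDGF-C, at 64.4 CPM in control (31 UMIs) and 249.5 CPM in TP (1203 UMIs), a ratio of 3.87 (2.71 to 5.73). Plat was highest in melanocyte-like cells in both libraries, at 302 and 266 CPM.

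Of the 4 co-receptors and PDGF-binding matrix genes 1 was higher over all cells. Sparc, a matrix glycoprotein that binds PDGF, was at 325 and 1354 CPM, a ratio of 4.17 (4.12 to 4.22), and its level was highest in DF-like cells, at 17029 and 31374 CPM. Cspg4 (NG2), a pericyte proteoglycan that binds PDGF-AA, was highest in the Myh11-led cluster, at 241 and 325 CPM, together with Pdgfrb. Nrp1 was highest in EC-like cells (478 and 443 CPM) and Lrp1 in DF-like cells (615 and 581 CPM).

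The 13 adaptors and effectors that dock on the receptors, such as Grb2, Plcg1 and Pik3r1, held none at least 2-fold different over all cells or in DPC-like cells, and 1 lower of 13 in DF-like cells (Src, 10 and 48 UMIs, ratio 0.479, 0.239 to 1.06). Their median log2 ratio over all cells was -0.33, that of the co-receptor list 0.14 and that of the down-modulation list -0.13. None of the 6 genes for down-modulation of the receptors differed 2-fold over all cells, in DF-like or in DPC-like cells.

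Of the 6 related receptor tyrosine kinases, 3 were at least 2-fold higher over all cells and 1 lower, with a median log2 ratio of 1.07. Csf1r, the macrophage colony-stimulating factor receptor, was at 1.83 and 10.2 CPM (ratio 5.59, 4.80 to 6.53) and was highest in myeloid-like cells. Flt4, the lymphatic VEGF receptor, was at 0.322 and 1.57 CPM (ratio 4.89, 3.39 to 7.25), and Flt3 at 20 and 61 UMIs (ratio 2.46, 1.46 to 4.30). Kit, the stem cell factor receptor, was lower, at 75.0 and 17.5 CPM (ratio 0.233, 0.222 to 0.244), also within DPC-like cells, at 20.9 and 8.36 CPM (ratio 0.4, 0.292 to 0.539), where Kdr was the other of 2 such genes with enough UMIs and was lower too (68 and 13 UMIs, ratio 0.313). The 7 inner root sheath markers in DPC-like cells summed to 1576 and 406 CPM, and their part was not tested. In DF-like cells the only kinase of this list with enough UMIs was Csf1r (5 and 168 UMIs, ratio 3.35, 1.41 to 10.5). The 9 myeloid markers in those cells summed to 16.6 and 56.0 CPM, and their part was not tested. In melanocyte-like cells, where Kit was highest, it was at 672 and 714 CPM. Of the 5 VEGF-type ligands 1, Pgf (placental growth factor), was higher, at 0.956 and 3.15 CPM (ratio 3.30, 2.65 to 4.14), and its level was highest in the Dkk2-led cluster. It was also the 1 of these ligands higher in DPC-like cells (58 and 81 UMIs, ratio 2.29, 1.61 to 3.26), and none of the 4 counted in DF-like cells passed 2-fold. The median of that list was -0.06 on the log2 scale. Csf1r, Flt4, Sparc and Pgf had their highest levels in classes or clusters that made up a larger share of the TP library. These were myeloid-like (0.376% and 2.10% of cells), EC-like (0.289% and 1.13%), DF-like and Dkk2-led cells (0.0793% and 1.59%). For Kit, DPC-like cells held 225 of 7928 control and 55 of 2290 TP UMIs, and melanocyte-like cells made up 1.25% and 1.06% of cells. The classes that held the other Kit UMIs are not listed here. The part of class size in these 5 ratios was not tested.

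Gene patterns most like those of the members were ranked by Pearson's r of log2(CPM + 1) over 50 points of class and library, with at least 50 cells each. The points share 2 libraries and differ in depth, and r is given as a description. Pdgfra was followed most closely by Svep1 (r = 0.94), Apod (0.94), Prrx2 (0.94), Sfrp2 (0.93) and Olfml3 (0.93), and Pdgfrb by Armcx4 (0.93), Fat4 (0.92), C1qtnf2 (0.90), Vstm4 (0.89) and Usp13 (0.88). For Pdgfd the closest were Casp12 and Adamts5 (0.89 each), Fhl1 (0.88), Fam124a (0.87) and Kcne4 (0.87). For the other ligands the closest matches had a lower r. Pdgfa was closest to Bcam (0.80), Mtmr7 (0.75), Lama5 (0.72), Ntn4 (0.72) and Sorbs2 (0.70), Pdgfb to Tnfrsf11a (0.74), Depp1 (0.73), Tcim (0.72), Naprt (0.71) and Ets2 (0.70), and Pdgfc to Marveld1 (0.77), Serpinb6a (0.75), Akr1b8 (0.73), Tns1 (0.71) and Slc29a1 (0.71). Among the members themselves, Pdgfd and Pdgfrb were most alike (r = 0.78), followed by the 2 receptors (0.61), and Pdgfa and Pdgfb ran opposite to Pdgfra (-0.43 and -0.44).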

How the data were processed

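The study performed 10x Genomics 3′ single-cell RNA-seq on pooled dorsal skin, and the deposited files are UMI counts per gene and barcode that the authors made with Cell Ranger 8.0.1 on mm10 and filtered to cell barcodes. From these counts, barcodes with 200 to 8000 genes and at most 10% mitochondrial UMIs were kept, which removed 3465 control and 5871 TP barcodes over the mitochondrial limit. A rewritten DoubletFinder procedure removed 7.5% of the rest (3168 and 1503). The study's cell count also covers a group not analysed here and was not compared. Cells were log normalized and integrated by reciprocal PCA in Seurat 5.3.0 (2000 variable genes without the 6 members and the pathway genes, 30 components, resolution 1), and stromal clusters were clustered again. A cluster was named from fixed markers where their mean log2 fold over the other cells was at least 0.8 and led the next list by 0.3. It also needed at least 3 detected markers, and either a marker among its 10 leading genes or a score of at least 2. No other list could have more markers among those leading genes. No cluster was named pericyte or smooth muscle, so the Myh11-led cluster stood in for that class. UMIs were summed per class and library. With 1 library per group no test was made, and intervals cover counting error only. Because the kit counts transcript ends, CPM was not divided by gene length. The members span from 24779 bases (Pdgfa) to 365922 bases (Pdgfd), and an effect of length on comparisons between genes was not tested. The members and lists were chosen with earlier results of these data known. Named genes are the 6 members, list genes with at least 200 UMIs and a 2-fold difference over all cells or in DF-like or DPC-like cells, the 5 genes most alike per member, and class markers. Other genes named by a count, such as Src and Flt3, and the leading genes of clusters were chosen after their values were seen. Intervals and calls were checked on counts simulated with counting error only, which is the error the intervals assume. That check cannot show how they hold for differences between mice or preparations. Alternatives were TMM factors (edgeR 4.0.16), cell means, other limits, cluster makeup, doublets and resolutions.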

Additional observations from a re-analysis of the deposited data

Results flagged for a closer look

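Some members differed in opposite directions between classes, with counting intervals on either side of 1. For Pdgfc the TP over control ratio was 3.04 in outer bulge-like cells and 0.707 in cells of the companion layer and medulla. For Pdgfd it was 1.78 in the Myh11-led cluster and 0.677 in DF-like cells. The intervals of these 2 values below 1 depend on the scaling. TMM raised the log2 ratio by 0.10 in the companion layer and medulla and by 0.36 in DF-like cells, more than the distance of the upper bounds of the log2 intervals (-0.05 and -0.24) from 0. Other intervals below 1 lay farther from it, at ratios of 0.6 for Pdgfc in IFE suprabasal-like cells, 0.523 for Pdgfc in upper hair follicle-like cells and 0.167 for Pdgfd in outer bulge-like cells, where TMM raised the log2 ratio by 0.32, 0.17 and 0.16 against upper bounds of -0.52, -0.30 and -1.83. With 1 library per group, the difference between classes was not tested.

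Barcodes over the mitochondrial limit entered no comparison, and the ligands were counted there at higher levels in the TP library. Those TP barcodes held 29.4 CPM of Pdgfa, 7.11 CPM of Pdgfb, 40.8 CPM of Pdgfc and 6.70 CPM of Pdgfd, against 14.9, 2.01, 15.3 and 1.61 CPM in the control barcodes removed for the same reason. Of the receptors, Pdgfra was at 4.22 CPM in control and 4.64 CPM in TP there, and Pdgfrb at 1.41 CPM (7 UMIs) and 3.09 CPM (30 UMIs).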

How the results depend on the processing

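Over all cells the log2 ratios were 0.59 (Pdgfa), 0.74 (Pdgfb), 0.96 (Pdgfc), 0.88 (Pdgfd), 0.11 (Pdgfra) and 0.12 (Pdgfrb). In the same order, TMM scaling gave 0.83, 0.99, 1.20, 1.13, 0.35 and 0.36, cells weighted equally gave 0.74, 1.10, 1.63, 1.26, 0.32 and 0.43, and averaged log normalized values gave 0.97, 1.404, 1.66, 1.37, 0.50 and 0.73. Values from averaged logs are log2 ratios of mean logs and not fold differences in level. With the control makeup of clusters Pdgfa was at 0.40, Pdgfc at 0.24 and Pdgfra at 0.0093, while Pdgfb (-0.035) and Pdgfd (-0.012) were slightly below 0. With the TP makeup the values were 0.40, -0.19, 0.31, -0.63, 0.0054 and -0.060. A mitochondrial limit of 5% gave 0.51 for Pdgfa, 0.49 for Pdgfb, 0.62 for Pdgfc and -0.046 for Pdgfra. Subtracting the background class gave 1.46 for Pdgfc, 0.19 for Pdgfra and 0.31 for Pdgfrb. It gave no value for Pdgfa, whose level in the background class in TP (59.9 CPM) was above that of the whole TP library (41.0 CPM). Keeping doublets, or only cells with at least 1000 UMIs, moved none of the 6 past its counting interval.

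Within classes, Pdgfa in IFE basal-like cells (-0.08) was at 0.13 with TMM and 0.26 with averaged log values, and Pdgfra in DF-like cells (-0.02) at 0.34 with either. For Pdgfra in DPC-like cells (0.10) the value was -0.022 with cells weighted equally, 0.29 with averaged log values and 0.28 with doublets put back. Among member and class pairs added after the data were seen, 2 turned, Pdgfb in IFE basal-like cells with averaged log values (0.031 against -0.44) and Pdgfa in hair matrix-like cells after background subtraction (-0.33 against 0.50). The class of highest level was the same at resolutions 0.5 and 2 for all 6 members.

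Unthinned shares were higher, at 11.8% and 19.1% (control and TP) for Pdgfa in IFE basal-like cells, 46.1% and 68.2% for Pdgfra in DF-like and 35.5% and 54.6% in DPC-like cells, 33.9% and 49.5% for Pdgfrb in the Myh11-led cluster and 18.8% and 35.9% in DF-like cells. In TP they were 8.61% for Pdgfb and 14.4% for Pdgfd in EC-like and 38.7% for Pdgfc in myeloid-like cells.

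Counts of genes past 2-fold depended on the UMI minimum, which sets how many genes enter. With TMM, 1049 genes were lower over all cells, 277 higher in IFE basal-like, 795 higher and 262 lower in DF-like and 924 and 243 in myeloid-like cells. At a minimum of 200 UMIs, 1140 genes were lower over all cells, and the higher and lower counts were 98 and 123 (IFE basal-like), 24 and 7 (Myh11-led), 143 and 128 (DF-like), 238 and 304 (DPC-like), 52 and 19 (EC-like) and 217 and 61 (myeloid-like). At 20 UMIs they were 294 and 790, 527 and 442, 678 and 1368, 1123 lower only in DPC-like cells, 512 and 504, and 713 and 1301. The cause of these differences was not tested.

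No paired analysis was possible because each group was 1 library, and leaving out a replicate was not possible for the same reason. Control DF-like, EC-like, myeloid-like and Myh11-led cells numbered 154, 113, 147 and 59, and Schwann-like and Dkk2-led cells 42 and 31, which limits the precision of their control levels.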
